A study of Homo sapiens with 6 samples.

Results

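The genes of the nuclear pore and of nuclear transport were compared between HEK293 cells that express TDNC1 and HEK293 cells that express a random control RNA. They were chosen by symbol: the numbered nucleoporins, NDC1, TPR and the POM121 family, the genes named RANBP, RANGAP or RAN, the importins, transportins and exportins with CSE1L, the NXF and NXT mRNA export genes, and NUTF2. Of 14884 gene symbols named in the table, 70 matched, on 73 of its 53617 rows. NUP214, RANBP1 and IPO5 have 2 rows each, and each gene is given by its row with the highest mean unless stated otherwise. Of the 70, 64 are protein-coding, 5 are transcribed pseudogenes (NUP210P1, NXF4, NXF5, POM121L4P and POM121L8P) and 1, NUP50-DT, is a long noncoding RNA whose symbol matched. No row is named for RAN, XPO1, KPNA2, TPR, NUP62, NXF1 or XPOT, which were not analysed here.

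HEK293 is a human line from embryonic kidney. The Flp-In derivative used here takes up a construct at a prepared genomic site. Both groups came through the same transfection and hygromycin selection with blasticidin, and stable clones of each construct were pooled, so neither group is a single clone. The construct type is inducible. Neither the use of an inducer nor the meaning of the name TDNC1 is given in the labels. RNA of each group was read on 3 Affymetrix Human Gene ST arrays, which the labels call biological replicates without saying whether the cultures were separate. The p-values therefore measure the spread between these samples, which may be technical. Array medians lay between 5.16 and 5.22 on the log2 scale. Of the cell type markers, the embryonic RNA-binding protein gene LIN28B lay above at least 93.3% of rows in every array and the kidney anlage factor PAX2 above at least 61.1%, while the neurofilament genes were not analysed here. Of 4 epithelial genes measured, EPCAM and KRT19 lay above at least 96.1% and 86.9% of rows, KRT14 between 49.4% and 54.9%, and KRT5 was dim, between 16.7% and 22.6%. PAX2 had a log2 change, TDNC1 minus control, of 0.41 (SE 0.12, limma adjusted p = 0.631), and its part in the results was not tested. Of 7 fibroblast and 7 blood genes listed, 2 of each were measured. These, the fibroblast genes DCN and LUM and the blood genes CD14 and LYZ, lay below the median of all rows in every array. CD14 came close to it, above up to 49.4% of rows.

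The nuclear pore is a ring-shaped channel through the nuclear envelope. Its scaffold is built of the Y complex and the inner ring and is anchored by membrane nucleoporins. Nucleoporins with repeats of phenylalanine and glycine (FG) line the channel and bind transport receptors, most of which belong to the importin beta family. The small GTPase Ran loads and unloads these receptors: it is kept in its GDP form in the cytoplasm by RANGAP1 with RANBP1 and RANBP2, and NUTF2 carries it back into the nucleus. Messenger RNA leaves by another route, through NXF and NXT proteins.

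Promoter sequences are shown for the members whose TDNC1 and control arrays did not overlap, as the letters upstream of the genes with the lowest and highest such differences. They are the 3 protein-coding genes with the lowest differences (RANBP6, NUP35 and NUP214) and the 2 higher ones that the promoter table holds (RANBP9 and NUP62CL). Each is the 250 bases before the RefSeq start on GRCh38.p14, 5′ to 3′ on the gene's strand, with motif matches in capitals on either strand.
NUP214: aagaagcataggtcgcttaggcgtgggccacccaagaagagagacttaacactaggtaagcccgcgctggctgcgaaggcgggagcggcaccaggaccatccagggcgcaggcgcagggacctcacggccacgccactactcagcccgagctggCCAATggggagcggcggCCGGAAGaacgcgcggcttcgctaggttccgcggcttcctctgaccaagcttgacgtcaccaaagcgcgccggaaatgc
NUP35: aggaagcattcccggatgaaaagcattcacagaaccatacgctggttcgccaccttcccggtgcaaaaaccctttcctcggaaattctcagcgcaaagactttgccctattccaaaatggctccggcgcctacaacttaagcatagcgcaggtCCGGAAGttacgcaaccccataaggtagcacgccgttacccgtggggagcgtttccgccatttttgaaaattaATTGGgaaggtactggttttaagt
RANBP6: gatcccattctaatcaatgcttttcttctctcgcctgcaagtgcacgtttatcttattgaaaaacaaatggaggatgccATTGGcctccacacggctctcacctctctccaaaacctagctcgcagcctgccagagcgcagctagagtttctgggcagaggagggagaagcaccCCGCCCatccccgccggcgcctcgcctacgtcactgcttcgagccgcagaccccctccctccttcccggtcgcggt
RANBP9: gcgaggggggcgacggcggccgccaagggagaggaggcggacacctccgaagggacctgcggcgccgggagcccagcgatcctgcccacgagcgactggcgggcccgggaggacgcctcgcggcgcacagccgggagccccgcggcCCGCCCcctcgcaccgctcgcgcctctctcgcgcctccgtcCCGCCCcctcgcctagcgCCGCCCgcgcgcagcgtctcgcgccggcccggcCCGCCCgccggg
NUP62CL: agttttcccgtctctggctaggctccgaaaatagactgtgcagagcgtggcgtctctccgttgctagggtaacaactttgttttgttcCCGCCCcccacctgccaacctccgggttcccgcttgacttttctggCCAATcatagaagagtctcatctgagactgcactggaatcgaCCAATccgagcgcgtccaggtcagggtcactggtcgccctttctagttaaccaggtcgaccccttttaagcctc
The stretches are chr9:131125336-131125585, plus strand, for NUP214, chr2:183124193-183124442, plus strand, for NUP35, chr9:6015625-6015874, minus strand, for RANBP6, chr6:13711836-13712085, minus strand, for RANBP9, and chrX:107206434-107206683, minus strand, for NUP62CL. The motifs searched were CCGGAAG of ETS factors, GGGCGG of Sp1, GCATGCG of NRF1 and CCAAT of NF-Y. No motif contains another. NUP214 and NUP35 hold 1 ETS and 1 NF-Y match each, RANBP6 1 Sp1 and 1 NF-Y match, RANBP9 4 Sp1 matches and NUP62CL 1 Sp1 and 2 NF-Y matches.

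RefSeq promoters were found for 58 of the 70 genes, and their full windows of 300 bases, from 250 before the start to 50 after it, were searched. The ETS motif was in 17 of the 58 (29.3%), against 10.7% of all 27305 promoters of this length and 14.2% of the 15842 promoters of protein-coding genes. The NRF1 motif was in 6 (10.3%), against 4.13% and 5.14%. The NF-Y motif was in 28 (48.3%), against 35.7% and 36.4%, and the Sp1 motif in 30 (51.7%), against 44.6% and 58.5%. Promoters of nuclear pore and transport genes thus held the ETS letters more often than the other promoters did, as a description with no test. Of the 7 promoters of genes with lower, non-overlapping TDNC1 arrays, 3 held the ETS motif (NUP214, NUP35 and XPO6), 5 the NF-Y motif, 4 the Sp1 motif and 0 the NRF1 motif. Of the 2 promoters of higher genes, 2 held the Sp1 motif, 1 the NF-Y motif and 0 the ETS or NRF1 motif. These matches are letters in a window and not measured binding.

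Nuclear pore and transport genes stood at nearly the same level in TDNC1 and control cells. The median log2 change, TDNC1 minus control, was -0.01 over the 70 genes and -0.01 over all rows, with 32 genes above and 38 below 0. The change was smaller than 0.1 in 45 genes and smaller than 0.2 in 65, or 92.9%, against 73.8% of all rows. All rows hold many dim, noisier rows, with a median standard error of 0.126 against 0.101 over the 70 genes. The same share over bright rows alone was not analysed. The change reached 0.3 in size in 3 genes: IPO4 (-0.36), the pseudogene NXF4 (-0.31) and RANBP3L (0.42). These counts take the brightest row of each gene. The dimmer row of NUP214, not counted, had a larger change, -0.50. In bulk RNA, fewer cells with a transcript and less of it per cell cannot be told apart.

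None of the 70 genes passed limma's test once p-values were adjusted over all rows by Benjamini-Hochberg (smallest adjusted p = 0.631), and 0.00187% of all rows did. At an unadjusted p under 0.05 in limma there were 3 genes lower in TDNC1 (4.29%, against 3.96% of all rows) and 0 higher (against 3.74%), which is near the background. The 3 were the importin genes IPO4 and RANBP6 and the pseudogene NXF4. The dimmer row of NUP214, not counted here, was lower at an unadjusted limma p of 0.00162. Without TDNC1 replicate 3 the number lower was 7 (10%), against 7.62% of all rows and 15.6% of the 1822 named rows brighter than the median member. It was 2 without control replicate 1, 1 without TDNC1 replicate 1, control replicate 2 or control replicate 3, and 0 without TDNC1 replicate 2. The share of all rows was not analysed for these other leave-outs. The 95% limma interval lay within -0.5 and 0.5, a 1.41-fold change either way, for 63 of the 70 genes (90.0%), against 64.3% of all rows and 81.4% of the 1822 named rows brighter than the median member. The 7 genes whose interval reached further were IPO4, RANBP6, RANBP3L, NXF3, NXF4, POM121L4P and NUP50-DT. The dimmer row of NUP214, outside these counts, had an interval of -0.74 to -0.26. A change beyond that size was thus outside the interval for most of these genes, and a smaller one was not resolved by 3 arrays a group.

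**Figure D1:**
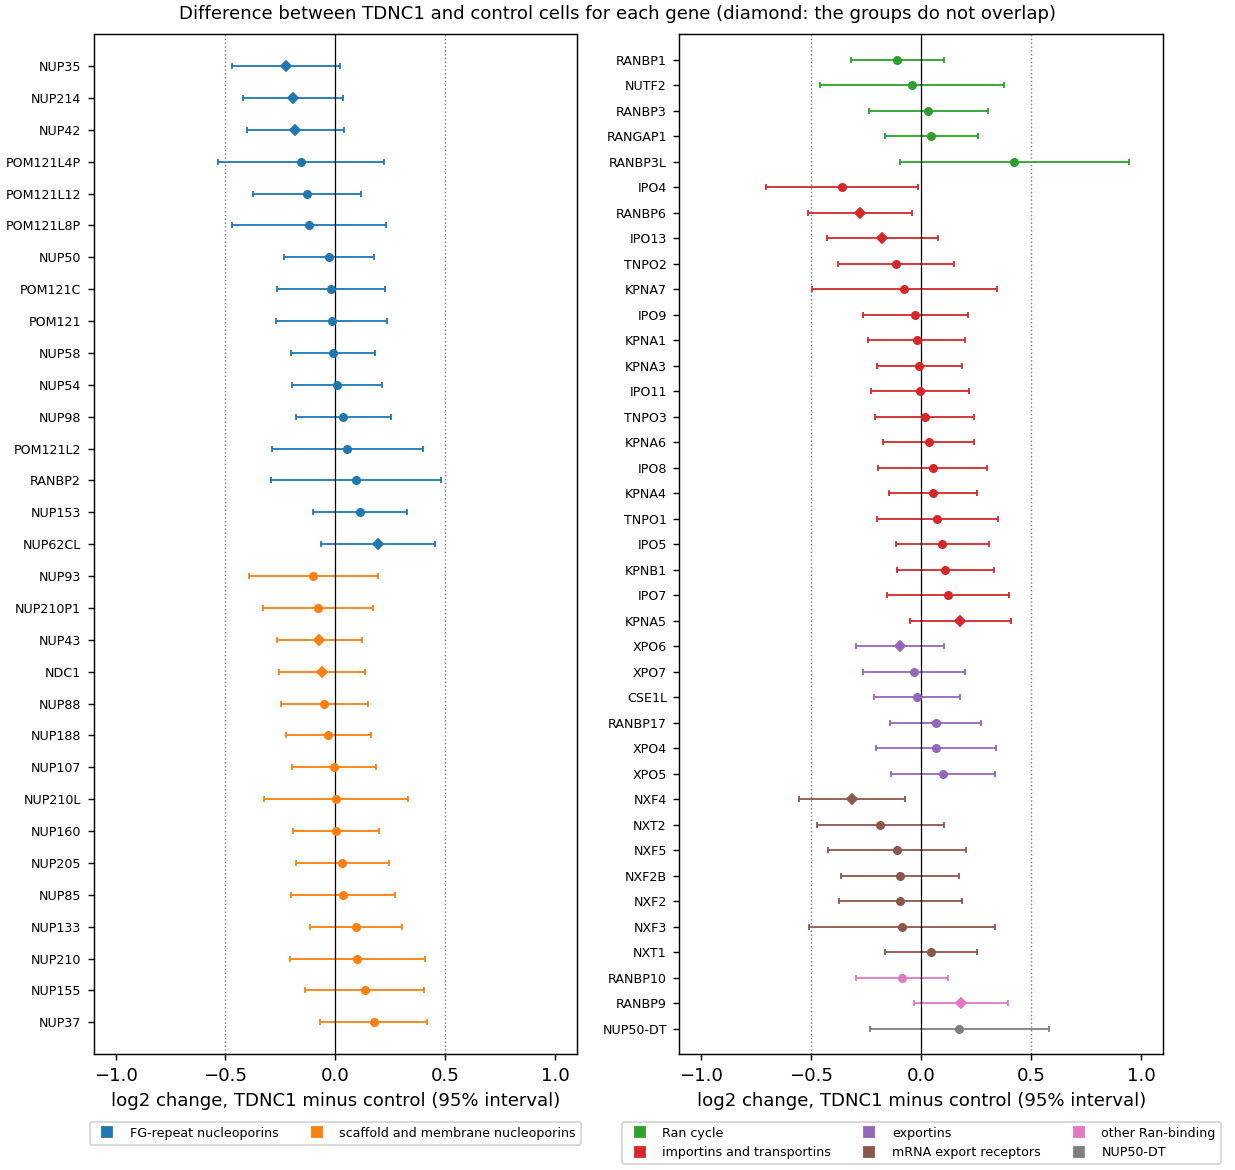
Log2 change (TDNC1 minus control, x axis) of each of the 70 genes with its 95% limma interval, coloured by role; diamonds mark genes whose TDNC1 and control arrays do not overlap and dotted lines stand at -0.5 and 0.5. In 63 genes the interval lies between the dotted lines, and the genes farthest from 0 are RANBP3L (0.42) and IPO4 (-0.36). The dimmer row of NUP214 (-0.50) is not shown.

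The TDNC1 and control arrays did not overlap in 12 genes. In 9 all TDNC1 arrays lay lower (12.9%, against 6.7% of all rows) and in 3 all lay higher (4.29%, against 6.48%). The lower ones were NUP214, NUP35, NUP42, NUP43, NDC1, IPO13, RANBP6, XPO6 and NXF4, and the higher ones NUP62CL, KPNA5 and RANBP9. With each array centred on its median the counts were 4 lower (against 5.19% of all rows) and 4 higher (against 7.8%). Repeated quantile normalization gave 9 lower and 1 higher, so the number of lower genes depended on the scaling used. The share of all rows was not analysed for repeated quantile normalization. Among the 1822 named rows brighter than the median member, 10.2% lay lower and 9.93% higher. Non-overlap is more frequent in any row when an array is left out. Without TDNC1 replicate 3, 18 genes lay lower (25.7%, against 17.3% of all rows and 32.8% of the bright rows) and 24 higher (34.3%, against 15.9% and 32.7%). Without control replicate 1 the counts were 14 lower (20%, against 11.2% of all rows and 14.4% of the bright rows) and 7 higher (10%, against 10.5% and 12.1%). Without control replicate 3 they were 12 lower (17.1%, against 14.2% and 16%) and 8 higher (11.4%, against 12.2% and 18.3%). Without TDNC1 replicate 1, TDNC1 replicate 2 or control replicate 2, 13, 10 and 13 lay lower (18.6%, 14.3% and 18.6%). The shares of all rows were 10.7%, 10.9% and 11.2%. In each of these settings 3 lay higher (4.29%, against 9.97%, 9.62% and 10.5% of all rows).

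NUP214, an FG nucleoporin of the cytoplasmic face of the pore that forms a docking site for export complexes, was lower in all TDNC1 arrays on both of its rows. On the brighter row it stood at 9.78, 9.61 and 9.84 in TDNC1 replicates 1, 2 and 3 and at 9.92, 9.96 and 9.93 in control replicates 1, 2 and 3. The groups did not overlap, and the TDNC1 arrays were spread more widely than the controls. The means were 9.74 ± 0.12 (SD, n = 3) and 9.94 ± 0.02 (SD, n = 3), a log2 change of -0.19 (SE 0.10, 95% interval -0.42 to 0.03, limma adjusted p = 0.668). Over the alternatives the change ran from -0.35, with the mean of both rows, to -0.13.

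On the dimmer row of NUP214 the values were 6.50, 6.49 and 6.66 in TDNC1 against 6.99, 7.17 and 6.99 in the control. All TDNC1 arrays lay below all controls by more than the spread within either group. The log2 change was -0.50 (SE 0.10, 95% interval -0.74 to -0.26), with an unadjusted limma p of 0.00162 and an adjusted p of 0.631, so the row did not pass over all rows. The brighter row exceeded the dimmer by 3.28, 3.12 and 3.18 in TDNC1 and by 2.92, 2.79 and 2.94 in the control, so the rows differed in the size of their change without overlap (exact two-sided permutation p = 0.10, the smallest that 3 arrays against 3 can give). Both rows carry the same RefSeq accession in the platform annotation, and which part of the transcript each probes was not analysed here. The nearest measured genes on either side in the GRCh38.p14 gene order, AIF1L and PLPP7, had log2 changes of -0.14 (SE 0.12) and 0.02 (SE 0.08).

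**Figure D2:**
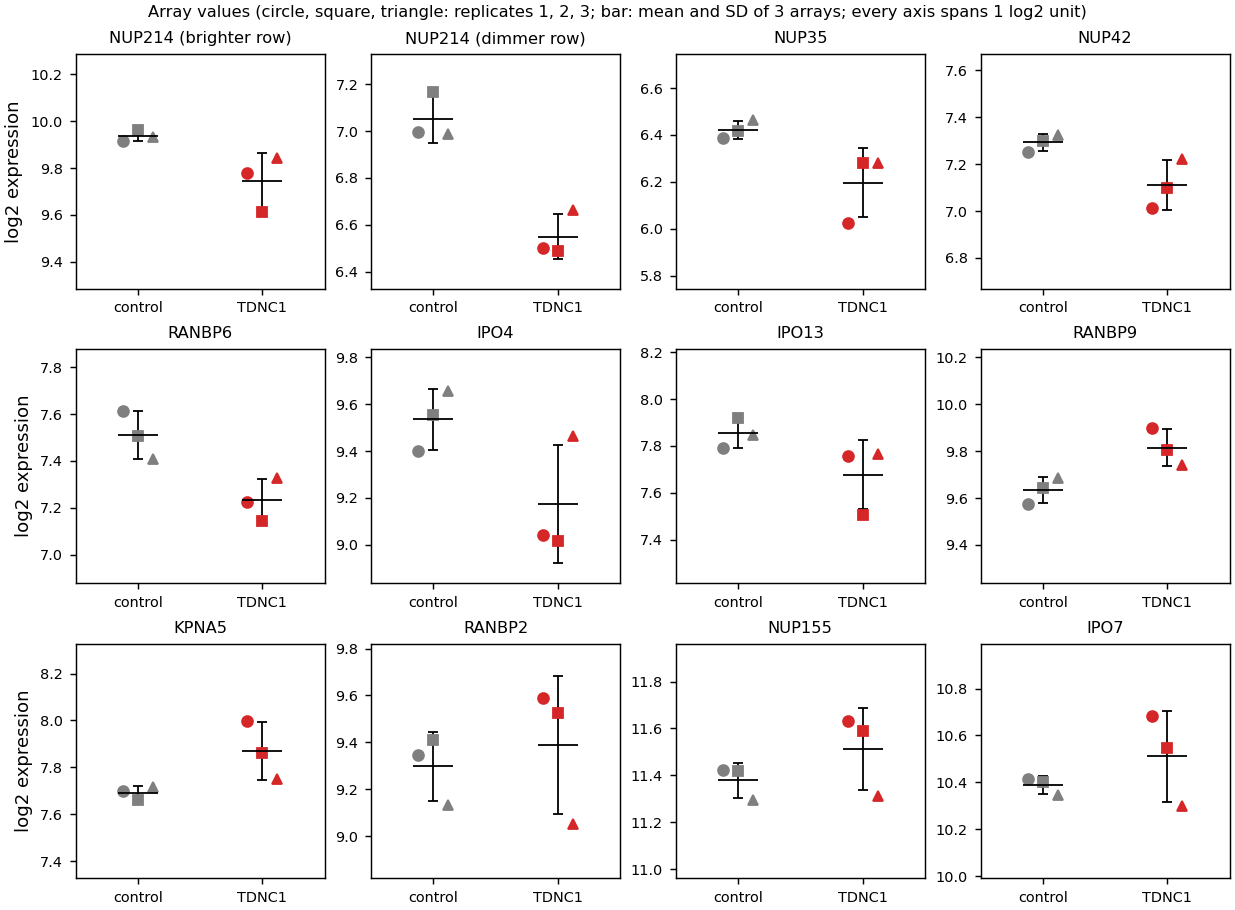
Log2 expression (y axis, each panel spanning 1 log2 unit) in the control and TDNC1 arrays for both rows of NUP214 and 10 other genes, with points for single arrays and bars for the mean and SD of 3 arrays. NUP214, NUP35, NUP42, RANBP6 and IPO13 lie lower in every TDNC1 array, RANBP9 and KPNA5 higher, while in IPO4, RANBP2, NUP155 and IPO7 TDNC1 replicates 1 and 2 lie beyond all controls on 1 side and TDNC1 replicate 3 lies within the controls (IPO4, NUP155) or beyond them on the other side (RANBP2, IPO7).

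The 4 genes of the cytoplasmic face, NUP214, NUP42, NUP88 and RANBP2, had a median log2 change of -0.12. In the first 2 all TDNC1 arrays lay lower without overlap, as in 6.7% of all rows, while NUP88 and RANBP2 overlapped. The median deviation of the 4 from their control means was -0.12, -0.13 and -0.08 in the TDNC1 arrays, against -0.03, 0.02 and 0.01 in the control arrays. NUP42, which binds the mRNA export factor GLE1, stood at 7.01, 7.10 and 7.22 in TDNC1 against 7.25, 7.30 and 7.33 in the control, a change of -0.18 (SE 0.09). The TDNC1 array nearest to the controls was again replicate 3. NUP88, the scaffold partner of NUP214, had -0.05 (SE 0.08), with overlapping groups. RANBP2, the giant nucleoporin that holds SUMO-modified RANGAP1 at the pore, had 0.09 (SE 0.16). Its values were 9.59, 9.53 and 9.05 in TDNC1 against 9.35, 9.41 and 9.13 in the control, so TDNC1 replicates 1 and 2 were above all controls, TDNC1 replicate 3 was below them, and replicate 3 was the lowest array in each group. Near-identical copies of RANBP2 exist in the genome, and the probes may not tell them apart.

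Over all 16 genes listed as FG nucleoporins, which include the POM121 family and NUP62CL, the median log2 change was -0.02, with 6 above and 10 below 0. NUP35, which also belongs to the inner ring, had the lowest change, -0.23 (SE 0.10). It stood at 6.03, 6.28 and 6.28 in TDNC1 against 6.39, 6.42 and 6.46 in the control, with no overlap and its lowest value in TDNC1 replicate 1. NUP62CL, whose protein resembles the end of the channel protein NUP62, had the highest, 0.19 (SE 0.11). It stood at 7.66, 7.48 and 7.40 in TDNC1 against 7.19, 7.37 and 7.39 in the control, where TDNC1 replicate 3 cleared the highest control narrowly. The limma adjusted p was 0.651 for NUP35 and 0.688 for NUP62CL.

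The channel and basket nucleoporins had small changes. NUP54 and NUP58, which form the central channel complex, had log2 changes of 0.01 (SE 0.09) and -0.01 (SE 0.08), and NUP98, a channel protein that also binds chromatin, 0.04 (SE 0.09). For NUP58 the 95% interval ran from -0.20 to 0.18. In the basket, NUP153 had 0.11 (SE 0.09) and NUP50 -0.03 (SE 0.09). NUP153 stood at 11.22, 11.19 and 11.08 in TDNC1 against 11.11, 11.06 and 10.99 in the control, where TDNC1 replicate 3 lay within the controls. The noncoding RNA NUP50-DT, which starts beside NUP50, had 0.17 (SE 0.17), with 5.71, 5.95 and 5.28 in TDNC1 against 5.43, 5.58 and 5.40 in the control, so its TDNC1 replicate 3 was the lowest of the 6 arrays.

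The 15 scaffold and anchor genes, with NUP88 and the NUP210 family among them, had changes from -0.10 to 0.18. In the Y complex, the outer scaffold that is needed for pore assembly, the median change over 6 genes was 0.02, from -0.07 for NUP43 to 0.18 for NUP37. NUP107 and NUP160 had -0.01 (SE 0.08) and 0.003 (SE 0.08). NUP107 stood at 9.38, 9.38 and 9.34 in TDNC1 against 9.38, 9.37 and 9.37 in the control, with all 6 arrays close together. NUP37 stood at 8.05, 7.90 and 7.79 in TDNC1 against 7.68, 7.71 and 7.82 in the control, so the groups overlapped through replicate 3. NUP43 had no overlap, at 9.99, 9.93 and 9.97 against 10.02, 10.03 and 10.06, but its change of -0.07 (SE 0.08) was smaller than its standard error.

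In the inner ring the median over 5 genes was -0.03. The channel-facing scaffold genes NUP188 and NUP205 had -0.03 (SE 0.08) and 0.03 (SE 0.09), and NUP93, which ties the ring to the channel proteins, -0.10 (SE 0.12). NUP155, which links the ring to the membrane, had 0.13 (SE 0.12), at 11.63, 11.59 and 11.31 in TDNC1 against 11.42, 11.42 and 11.29 in the control. TDNC1 replicates 1 and 2 were above the controls and replicate 3 was within them. Of the membrane nucleoporins, NDC1 had -0.06 (SE 0.08) with no overlap, NUP210 0.10 (SE 0.13), POM121 -0.02 (SE 0.11) and POM121C -0.02 (SE 0.10). The sequences of POM121 and POM121C are nearly the same, and probes may read both. The germline paralogue NUP210L and the pseudogene NUP210P1 had 0.003 and -0.08.

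The Ran cycle genes had a median log2 change of 0.03 over 5 genes. RANGAP1, which activates the GTPase of Ran, had 0.05 (SE 0.09). NUTF2, the import carrier of Ran, had -0.04 (SE 0.18), at 6.59, 6.70 and 7.10 in TDNC1 against 6.83, 6.60 and 7.09 in the control. Replicate 3 was highest in each group, and the difference between replicates exceeded that between groups. RANBP1, the cofactor of RANGAP1, had -0.11 (SE 0.09) on its brighter row and -0.08 (SE 0.10) on the other. RANBP3, a cofactor of export by XPO1, had 0.03 (SE 0.11). Its paralogue RANBP3L had 0.42 (SE 0.22), the largest change in size of all 70 by brightest row with 6 arrays. Without control replicate 2 it was 0.18, smaller in size than that of IPO4 in the same arrays (-0.35). It stood at 4.25, 4.13 and 3.83 in TDNC1 against 3.82, 3.16 and 3.95 in the control, with overlapping groups, and its control mean of 3.65 was under the lowest array's lower quartile (3.77), where array values are compressed.

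The 6 importin alpha genes, whose proteins recognise the classical nuclear localisation signal, had a median change of 0.01. KPNA1, KPNA3, KPNA4 and KPNA6 had -0.02, -0.01, 0.05 and 0.03, each with a standard error of 0.08 to 0.09. KPNA5 stood at 7.996, 7.86 and 7.75 in TDNC1 against 7.70, 7.66 and 7.72 in the control, with no overlap and a change of 0.18 (SE 0.10, limma adjusted p = 0.686). The gap between TDNC1 replicate 3 and the highest control was small beside the spread of the TDNC1 arrays. KPNA7, an importin alpha of the early embryo, had low values, at means of 3.84 ± 0.12 and 3.92 ± 0.35 (SD, n = 3).

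The 12 import receptors of the importin beta family lay on both sides of 0, 6 above and 6 below 0, with a median of 0.004. IPO4 is a receptor for histones and ribosomal proteins. By brightest row it had the lowest change of all 70 genes, -0.36 (SE 0.15, 95% interval -0.71 to -0.01, limma adjusted p = 0.646). It stood at 9.04, 9.02 and 9.47 in TDNC1 against 9.40, 9.55 and 9.65 in the control. TDNC1 replicates 1 and 2 were below all controls, while replicate 3 lay within them. RANBP6, a paralogue of IPO5, had -0.28 (SE 0.10, adjusted p = 0.632 in limma), at 7.23, 7.14 and 7.33 in TDNC1 against 7.61, 7.51 and 7.41 in the control. Here all TDNC1 arrays lay below all controls, replicate 3 of each group coming closest. IPO13, which carries cargo in both directions, had -0.18 (SE 0.11), at 7.76, 7.51 and 7.77 against 7.79, 7.92 and 7.85, again with no overlap.

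KPNB1, the partner of importin alpha, had 0.11 (SE 0.09), at 12.22, 12.21 and 12.03 in TDNC1 against 12.07, 12.02 and 12.05 in the control. IPO7, a receptor for ribosomal proteins, had 0.12 (SE 0.12), at 10.68, 10.55 and 10.30 in TDNC1 against 10.42, 10.40 and 10.35 in the control. In both genes replicates 1 and 2 of TDNC1 were above all controls, and replicate 3 was within them for KPNB1 and below them for IPO7. TNPO1, which imports RNA-binding proteins with the PY signal, had 0.07 (SE 0.12), its paralogue TNPO2 -0.12 (SE 0.11) and TNPO3, the receptor of SR splicing factors, 0.02 (SE 0.10). The rows of IPO5 had 0.10 (SE 0.09) and 0.15 (SE 0.19), while IPO8, IPO9 and IPO11 had 0.05, -0.03 and -0.01. The median deviation of the 12 receptors from their control means was 0.11, -0.004 and -0.08 in the TDNC1 arrays, against 0.01, 0.02 and -0.01 in the control arrays.

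**Figure D3:**
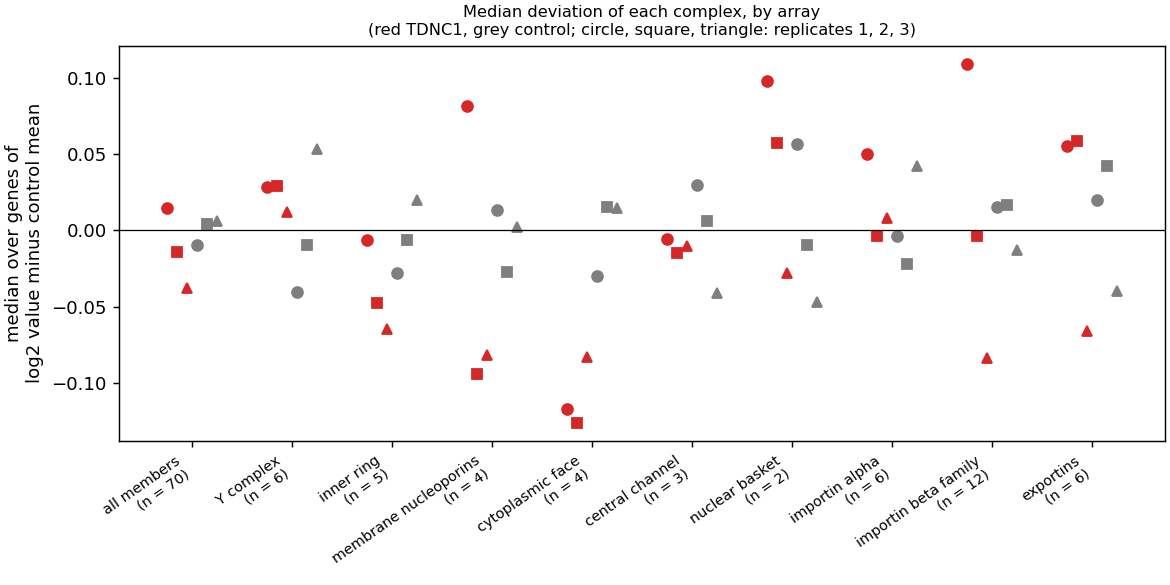
Median over the genes of each complex of the log2 value minus the control mean of that gene (y axis), for each array, with TDNC1 in red and the control in grey and replicates 1, 2 and 3 as circle, square and triangle. The TDNC1 arrays lie below the controls for the cytoplasmic face (4 genes), at -0.12, -0.13 and -0.08, and overlap with the control arrays for each of the other sets shown.

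The 6 exportin genes had a median of 0.02. CSE1L, which returns importin alpha to the cytoplasm, had -0.02 (SE 0.08), at 12.23, 12.19 and 12.16 in TDNC1 against 12.23, 12.24 and 12.17 in the control. This change turned to 0.0015 when arrays were centred on their medians. XPO5, the exporter of microRNA precursors, had 0.10 (SE 0.10), with 10.19, 10.09 and 9.93 against 9.92, 9.99 and 9.99. XPO6, which exports actin, had -0.10 (SE 0.08) with no overlap, at 10.38, 10.39 and 10.41 against 10.44, 10.55 and 10.49. XPO4, XPO7 and RANBP17 had 0.07, -0.03 and 0.07. None of the 6 had an interval beyond -0.5 or 0.5.

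Of the 7 mRNA export genes, 6 had values below 0, with a median of -0.10. NXT1, the partner of the main mRNA exporter, had 0.04 (SE 0.09) and its paralogue NXT2 -0.19 (SE 0.12). The NXF paralogues on the X chromosome had low values, with means of 3.85 to 4.82. The pseudogene NXF4 stood at 3.97, 3.77 and 3.82 in TDNC1 against 4.17, 4.06 and 4.27 in the control, a change of -0.31 (SE 0.10, limma adjusted p = 0.631). NXF2 and NXF2B, near-identical copies, had -0.09 and -0.10, NXF3 -0.09 and the pseudogene NXF5 -0.11. RANBP9 and RANBP10, paralogous scaffold proteins of a ubiquitin ligase that bind Ran, had 0.18 (SE 0.09) and -0.09 (SE 0.09). RANBP9 stood at 9.90, 9.80 and 9.74 in TDNC1 against 9.57, 9.64 and 9.69 in the control, with no overlap.

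TDNC1 replicate 3 stood apart from TDNC1 replicates 1 and 2 over all rows, and these genes shared the pattern. The median absolute difference over all rows was 0.134 between TDNC1 replicates 1 and 2, and 0.188 and 0.177 between them and replicate 3. Over the 70 genes it was 0.07 between TDNC1 replicates 1 and 2, and 0.15 and 0.13 between them and replicate 3. Between TDNC1 replicate 3 and control replicate 3 it was 0.136 over all rows and 0.06 over the 70 genes, as small as between control replicates 1 and 2 (0.136 and 0.06). Control replicates 1 and 3 differed by 0.162 over all rows and 0.11 over the 70 genes. In 24 genes TDNC1 replicates 1 and 2 both lay above the 4 other arrays (34.3%, against 13.2% of all rows), and in 15 below them (21.4%, against 13.9%). Among the 1822 named rows brighter than the median member the shares were 30.8% and 30.2%. The share above was thus near that of bright rows, and the share below (21.4%) was under it. The 24 genes had a median difference of replicates 1 and 2 from the control mean of 0.17, and the 15 genes of -0.22, sizes that the way the genes were chosen fixes in part.

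By role, the 24 genes above held 7 importins and transportins, 3 exportins, 5 FG nucleoporins and 6 scaffold or anchor genes, and the 15 below held 5, 1, 4 and 2. Without TDNC1 replicate 3, KPNA5 and NUP50-DT had an unadjusted limma p under 0.05 and higher values (2.86%, against 6.87% of all rows). At that p, 7 genes had lower values (10%, against 7.62% of all rows). Among the 1822 bright named rows the shares were 12.6% higher and 15.6% lower, so both shares of these genes were under those of bright rows. These 7 were IPO4, RANBP6, NUP214, NUP42, NXT2, NXF4 and POM121L4P. None passed after adjustment, where 0.0429% of all rows did. IPO4 then had a change of -0.51 (adjusted p = 0.152 in limma) and RANBP2 0.26 (adjusted p = 0.386). The dimmer row of NUP214 had -0.56 (adjusted p = 0.118).

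**Figure D4:**
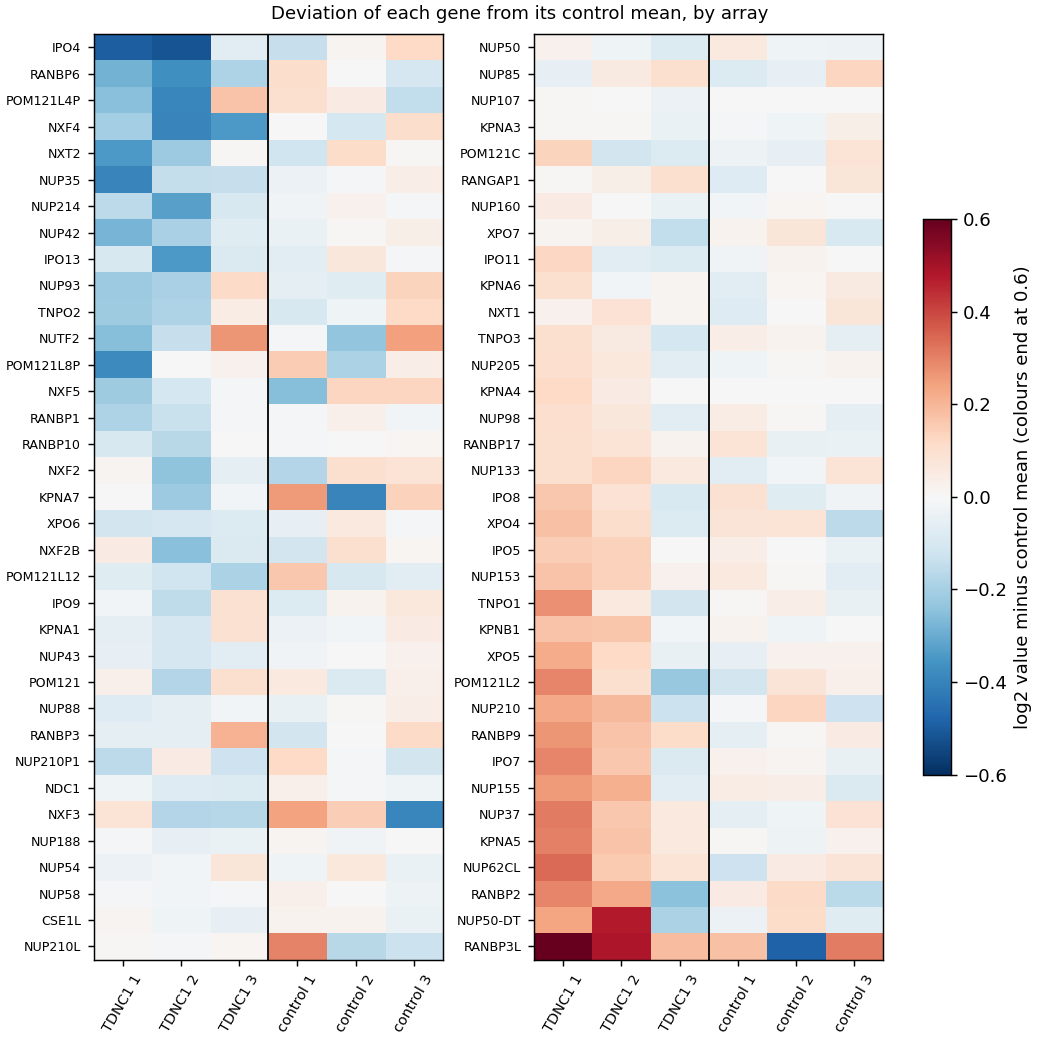
Log2 value minus the control mean of each of the 70 genes (colour, red above and blue below), by array, sorted by the mean of TDNC1 replicates 1 and 2. The strongest colours lie in the TDNC1 replicate 1 and 2 columns, from IPO4 (-0.51 in their mean) to RANBP3L (0.54), and are paler in TDNC1 replicate 3 and the controls for most genes.

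Genes that work with these proteins were read from lists of the pathway. Of 15 other pore, lamina and linker genes measured of 21 listed, none passed limma's adjusted test, 12 had values above 0 and the median change was 0.07. BANF1, which ties chromatin to the nuclear envelope, had -0.43 (SE 0.17, unadjusted p = 0.0359, adjusted p = 0.643 in limma), at 7.37, 7.32 and 7.91 in TDNC1 against 7.92, 7.95 and 8.01 in the control. The inner membrane protein gene EMD had 0.34 (SE 0.15), at 10.20, 10.15 and 9.69 against 9.71, 9.65 and 9.67, where the groups overlapped. In both genes TDNC1 replicate 3 lay close to the controls. Of the 15 genes, BANF1 and SENP1 lay lower in TDNC1 without overlap (13.3%, against 6.7% of all rows) and SUN1 higher (6.67%, against 6.48%). SUN1, which links the envelope to the cytoskeleton, had 0.12 (SE 0.09), and the pore genes SEH1L, RAE1 and GLE1 0.003, 0.02 and 0.07.

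Of 5 Ran and adaptor genes measured of 8 listed, none passed and the changes ran from -0.07 to 0.07. NMD3, the export adaptor of the large ribosomal subunit, had 0.07 (SE 0.10), the export adaptor PHAX 0.05 (SE 0.09) and the snRNP import adaptor SNUPN -0.05 (SE 0.09). Of 16 mRNA export genes measured of 22 listed, none passed, 7 lay above and 9 below 0, and the median was -0.004. ALYREF, an adaptor that brings mRNA to the exporter, had -0.22 (SE 0.12) with no overlap, at 8.11, 8.29 and 8.48 in TDNC1 against 8.48, 8.498 and 8.56 in the control. Subunits of the THO complex had changes on both sides of 0. THOC1, THOC6 and THOC7 had -0.22 (SE 0.12), -0.20 (SE 0.22) and -0.11 (SE 0.09). THOC2 and THOC5 had 0.23 (SE 0.13) and 0.10 (SE 0.09). Of these only THOC7 had no overlap, with all TDNC1 arrays lower, as in 6.7% of all rows. As control genes, GAPDH, HPRT1 and TBP had changes of 0.01 (SE 0.09), 0.14 (SE 0.09) and -0.28 (SE 0.11). All TDNC1 arrays lay higher without overlap in HPRT1, as in 6.48% of all rows, and lower in TBP, as in 6.7%. Such differences were thus also seen in control genes.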

How the data were processed

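RNA from 6 samples was measured on Affymetrix arrays (Human Gene ST). The deposited values are log2 expression per transcript cluster. Per the submitters' processing notes, the authors used RMA and Affymetrix Power Tools. No version and no genome build is given in the sources used here. The log2 scale was read from the range (0.79 to 13.85). RMA gives all arrays the same probe distribution, which would hide a shift shared by most transcripts, and changes of dim rows are compressed. Rows were named through GEO's platform annotation (16098 rows with 1 symbol, the others unnamed here), and all 70 genes matched the GRCh38.p14 table by entrez identifier.

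Groups came from the sample titles. All 53617 rows were fitted with lmFit and eBayes of limma 3.58.1, under R 4.3.3 (two-sided, no covariate, no filter on low values), with Benjamini-Hochberg adjustment over all rows and a threshold of 0.05. The fit was checked on simulated arrays with known changes. The genes and lists were chosen with earlier results of these data known. Named genes are those with no overlap between groups, the extremes and the brightest gene of each role, every NUP214 row and the smallest p of each pathway list; further genes were named by role after their values were seen. Assignment to pore complexes follows textbook knowledge. The alternatives were variance moderation with trend, array weights, a replicate block, a filter on dim rows, repeated quantile normalization, median centring, the mean of a symbol's rows, named rows alone, and leaving out arrays.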

Additional observations from a re-analysis of the deposited data

How the results depend on the processing

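No gene of the 70 passed under any of the 15 alternatives run, and the signs of the 26 named rows were kept except for CSE1L, at 0.0015 with arrays centred on their medians. That centring moved the median over the genes from -0.01 to 0.012, and the lower, non-overlapping genes from 9 to 4. Repeated quantile normalization left 1 higher, non-overlapping gene instead of 3, and the lower ones stayed at 9. Moderation with trend and array weights each gave 1 higher gene at an unadjusted limma p under 0.05 instead of 0, and 4 lower instead of 3. In both, the brighter row of NUP214 was among the 4. The mean of a symbol's rows and named rows alone also gave 4 lower, while median centring gave 2. The share of all rows at that p was not analysed for these settings. When arrays were left out singly, the genes at an unadjusted limma p under 0.05 ran from 0 to 2 higher and from 0 to 7 lower. Without TDNC1 replicate 3 they were 2 and 7, against 6.87% and 7.62% of all rows. The share of all rows at that p was not analysed for the other leave-outs, single or of both arrays numbered 3. The non-overlapping genes ran from 3 to 24 higher (9.62% to 15.9% of all rows) and from 10 to 18 lower (10.7% to 17.3%). The rows called over the whole table ran from 1 to 23, the latter without TDNC1 replicate 3. Without both arrays numbered 3, 2 genes were higher at an unadjusted p under 0.05, and 27 lay higher and 21 lower without overlap (21.9% and 26% of all rows, 38.6% and 37.3% of the 1822 bright rows). The cause of these changes was not tested, beyond the smaller number of arrays. All 70 genes passed the filter on dim rows.

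The replicate numbers were not taken as pairs in the main fit. The deviations of same-numbered arrays correlated at 0.04, -0.001 and 0.05 over all rows. TDNC1 replicates 1 and 3 correlated best with the control of their own number, and TDNC1 replicate 2 with control replicate 1 (0.05). Such small correlations cannot settle whether the arrays were paired. With the replicate block, 0 genes were called and 2 instead of 3 were lower at an unadjusted limma p under 0.05. The share of all rows was not analysed for the block. The SE of IPO4 was 0.11 instead of 0.15, and that of RANBP6 0.11 instead of 0.10. IPO4 and the dimmer row of NUP214 had adjusted p of 0.639 in limma. The number of arrays limits the precision.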
